A study of Homo sapiens with 11 samples.

Results

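The contractile actin cytoskeleton genes described here are 10 human genes whose products build, stabilise, crosslink or anchor actin filaments: LMOD1, TAGLN, MYL9, TPM1, TPM2, TPM4, ACTN1, ACTN4, FSCN1 and VCL. They were taken from a table of 61464 genes by matching Ensembl identifiers to these symbols, and all 10 were among the 17963 genes with enough counts to be tested. The genes were chosen by their differential expression in these same libraries, without a record of which comparison was used, so the levels and fold changes of the 10 genes are given as a description and carry no p-value. The cells were HCT116, an established line of epithelial cells from a human colorectal carcinoma, labelled as carrying a ras mutation. Polyadenylated RNA was sequenced 48 h after exposure to the Ganoderma triterpenoid extract GTEA1 (4 libraries), the extract GTEA7 (4 libraries) or DMSO (3 libraries), all labelled as batch 1. The labels give no dose of either extract and no antibody, genetic change or second agent, and the study's title names stemness and migration of colon cancer as its subject.

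Actin filaments bear force when myosin II pulls on them, and tropomyosins lie along the filament and set which myosins and severing factors can reach it. Alpha-actinin crosslinks filaments into stress fibres, fascin packs them into the tight bundles of filopodia and invasive protrusions, and vinculin ties them to integrin adhesions. Leiomodin 1, transgelin and the regulatory light chain MYL9 are best known from smooth muscle, where SRF with myocardin or the related coactivators MRTFA and MRTFB drives their genes through promoter elements called CArG boxes.

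Total counts were 13742326 to 16433111 in the GTEA1 libraries, 14955685 to 19304211 in the GTEA7 libraries and 13866350 to 17431515 in the DMSO libraries. Levels are CPM, the counts divided by a TMM-scaled library size, and a gene was called at a Benjamini-Hochberg adjusted p under 0.05 in edgeR's quasi-likelihood test over all 17963 genes. GTEA1 against DMSO called 71.8% of tested genes, GTEA7 against DMSO 22.5%, and GTEA7 against GTEA1 72.7%, so a call by itself sets a gene apart little in the comparisons that involve GTEA1. Scaling by library size alone shifted the median over all tested genes to a log2 fold change of -0.17 for GTEA1 against DMSO, -0.06 for GTEA7 against DMSO and 0.11 for GTEA7 against GTEA1. With that scaling 4828 genes were called higher and 8179 lower for GTEA1 against DMSO, where TMM gave 6390 and 6505, and for GTEA7 against DMSO 1255 and 2954, where TMM gave 2159 and 1877. Nothing says that the libraries of a group came from separate cultures, so the errors measure the spread between libraries, which may be technical.

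The label of the cells was checked against markers. EPCAM, KRT8, KRT18, KRT19, CDH1 and CDX2 were all expressed, while CDX1 had no count in any library, and LGALS4 and VIL1 were near 0 with 19 and 28 counts over all 11 libraries. The 9 epithelial markers summed to 2720 to 2850 CPM with GTEA1, 2230 to 2320 CPM with GTEA7 and 2230 to 2380 CPM with DMSO. Of the 8 smooth muscle markers, MYOCD had 2 counts in all, ACTG2 7, CNN1 16 and MYH11 22. The 4 tested ones, SMTN, SYNM, DES and ACTA2, averaged 49.7, 21.1, 3.3 and 1.77 CPM with DMSO. Their log2 fold changes for GTEA1 against DMSO went both ways. SMTN stood at 0.53 ± 0.05, SYNM at -1.32 ± 0.08, DES at -0.47 ± 0.17 and ACTA2 at -0.12 ± 0.22. The 8 smooth muscle markers, of which 4 were tested, summed to 82.4 to 86.0 CPM with GTEA1, 54.4 to 61.5 CPM with GTEA7 and 74.7 to 77.6 CPM with DMSO, most of it from SMTN. Among fibroblast markers DCN had 4 counts and LUM 2 over all libraries, and the 8 summed to 38.4 to 46.5 CPM with GTEA1, 37.0 to 46.1 CPM with GTEA7 and 54.0 to 55.4 CPM with DMSO, most of it from COL1A1. The 4 endothelial markers summed to at most 4.27 CPM and the 4 immune markers to at most 0.69 CPM in any library.

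With GTEA1, LMOD1, TAGLN, TPM1, TPM4, ACTN1, ACTN4 and VCL, 7 of the 10 genes, had every library above every DMSO library, and MYL9 had every library under them. TPM2 and FSCN1 overlapped with DMSO. With GTEA7, TPM4 lay above the DMSO libraries, ACTN1 and FSCN1 lay under them, and the other 7 overlapped. Against GTEA1, GTEA7 had 8 of the genes lower in every library, and MYL9 and TPM2 overlapped. Groups that did not overlap were seen in 68.7% of all tested genes for GTEA1 against DMSO, 30.5% for GTEA7 against DMSO and 65.3% for GTEA7 against GTEA1. These counts describe genes chosen on the same values. The median log2 fold change of the 10 genes was 0.40 for GTEA1 against DMSO, where that of all genes was -0.01. It was -0.12 for GTEA7 against DMSO and -0.53 for GTEA7 against GTEA1. Summed over the 10 genes, the level was 2028 ± 47.2 CPM with GTEA1, 1399 ± 13.3 CPM with GTEA7 and 1447 ± 26.1 CPM with DMSO (SD, n = 4, 4 and 3).

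**Figure D1:**
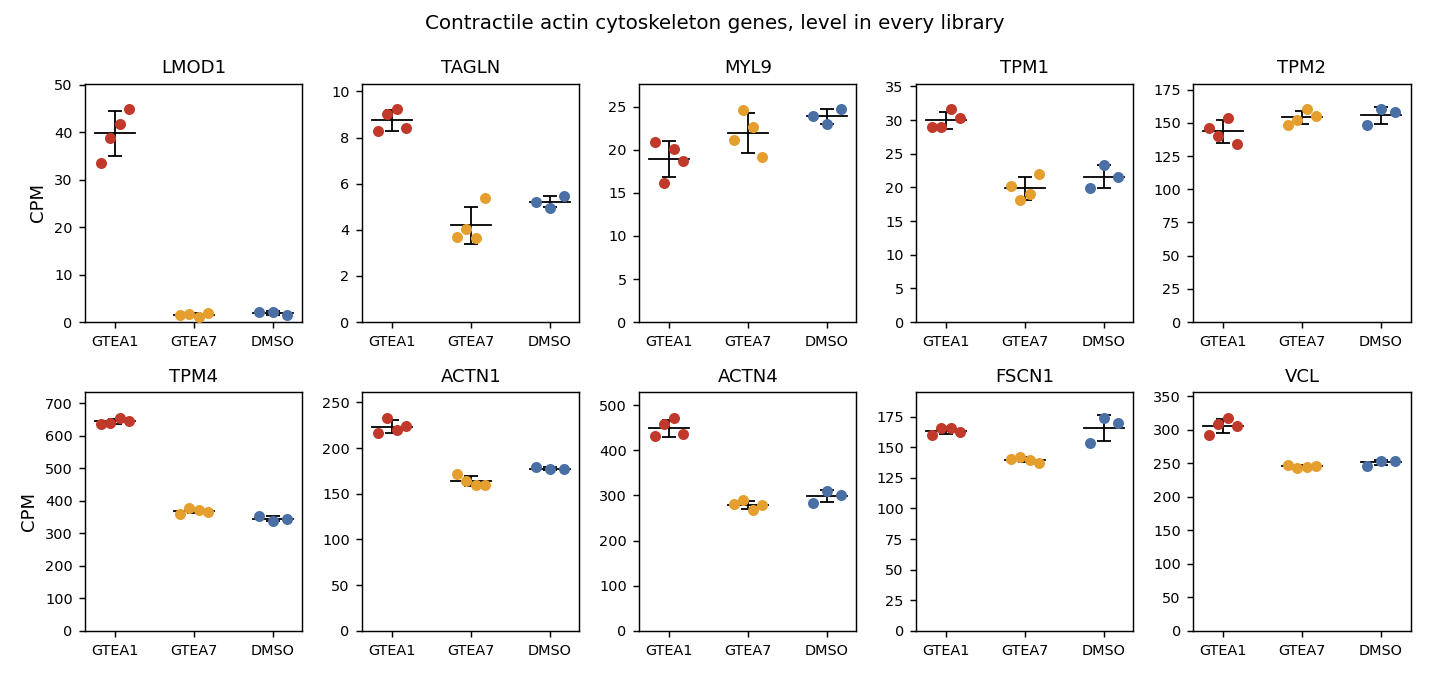
Level of each of the 10 genes in CPM (vertical axis, from 0, one panel per gene) in GTEA1, GTEA7 and DMSO libraries; points are libraries, and bars are the mean ± SD. The GTEA1 libraries stand above both other groups for LMOD1, TAGLN, TPM1, TPM4, ACTN1, ACTN4 and VCL, and LMOD1 reaches 33.6 to 44.9 CPM with GTEA1.

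LMOD1 (ENSG00000163431; GRCh38 chromosome 1, 201896452 to 201946588, minus strand) encodes leiomodin 1, an actin filament nucleator of the tropomodulin family that is typical of smooth muscle. Its levels were 33.6, 38.9, 41.8 and 44.9 CPM in the GTEA1 libraries, 1.18, 1.56, 1.64 and 1.84 CPM in the GTEA7 libraries, and 1.45, 2.05 and 2.23 CPM in the DMSO libraries. Every GTEA1 library lay far above every other library, while the GTEA7 and DMSO libraries overlapped. The mean was 39.8 ± 4.81 CPM with GTEA1, 1.55 ± 0.276 CPM with GTEA7 and 1.91 ± 0.410 CPM with DMSO (SD, n = 4, 4 and 3). This was a 20.5-fold higher level with GTEA1 than with DMSO, a log2 fold change of 4.36 ± 0.12 (SE) and the 24th highest of 17963 tested genes. The log2 fold change of GTEA7 against DMSO was -0.32 ± 0.22, and that of GTEA7 against GTEA1 was -4.68 ± 0.11, the 16th lowest. The precision with GTEA7 and DMSO was limited by depth, since LMOD1 had 20 to 32 counts per GTEA7 library and 21 to 38 per DMSO library, against 438 to 699 per GTEA1 library. The other leiomodins, LMOD2 and LMOD3, had 17 and 14 counts over all libraries and were not tested.

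LMOD1's RefSeq promoter window, 250 bases before to 50 after the annotated start at chr1:201946499-201946798 on the minus strand of GRCh38.p14, is shown because this gene had the largest change, and it was added after the values were seen. Capitals mark a TEAD motif (GGAATG) at -126 to -121 from the start. An exact CArG box (CC, then A or T bases only, then GG) was not among the letters of this window. Near matches to the CArG box were not searched here or in the other windows.
LMOD1: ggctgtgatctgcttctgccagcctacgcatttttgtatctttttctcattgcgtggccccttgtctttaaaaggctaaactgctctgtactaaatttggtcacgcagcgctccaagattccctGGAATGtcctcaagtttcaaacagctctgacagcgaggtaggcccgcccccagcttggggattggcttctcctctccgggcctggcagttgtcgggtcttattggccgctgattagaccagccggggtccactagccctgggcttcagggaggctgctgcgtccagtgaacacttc

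The genes around LMOD1 were described next, since the counting is not stated to use strand. The antisense gene AL513217.1 (ENSG00000223774; chromosome 1, 201893842 to 201899978, plus strand) shares 536 exon bases with the 3′ part of LMOD1. Reads that lie within these shared bases cannot be told apart without strand. AL513217.1 had 425 counts over the GTEA1 libraries, 11 over the GTEA7 libraries and 13 over the DMSO libraries, a log2 fold change of 4.79 ± 0.27 for GTEA1 against DMSO (edgeR adjusted p = 1.0e-20) and -0.68 ± 0.61 for GTEA7 against DMSO (edgeR adjusted p = 0.48). SHISA4, named after its values were seen, lies on the plus strand 4146 bases beyond the 3′ end of LMOD1. SHISA4 stood at 54.0 to 63.3 CPM with GTEA1, 6.60 to 8.60 CPM with GTEA7 and 7.38 to 7.94 CPM with DMSO. Its log2 fold change was 2.88 ± 0.08 for GTEA1 against DMSO (edgeR adjusted p = 2.5e-35) and 0.04 ± 0.10 for GTEA7 against DMSO (edgeR adjusted p = 0.82). GTEA1 libraries thus stood apart for all 3 genes, and the other tested genes within the same neighbourhood lay between -0.66 for ELF3-AS1 and 0.28 for ELF3. Whether reads of the antisense gene enter the LMOD1 count was not tested. Other members also share exon bases with opposite-strand genes: TAGLN 446 with PCSK7, VCL 1109 with AP3M1, ACTN4 868 with CAPN12 and TPM4 829 with AC008894.3. Those genes had log2 fold changes of -0.27, -0.04, 0.52 and 1.73 for GTEA1 against DMSO. PCSK7 averaged 21.9 CPM with GTEA1 and 26.4 CPM with DMSO, above TAGLN. TPM1 shares 2070 with TPM1-AS and 691 with AC079328.2, which had no values. Their part in the counts was not tested.

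**Figure D2:**
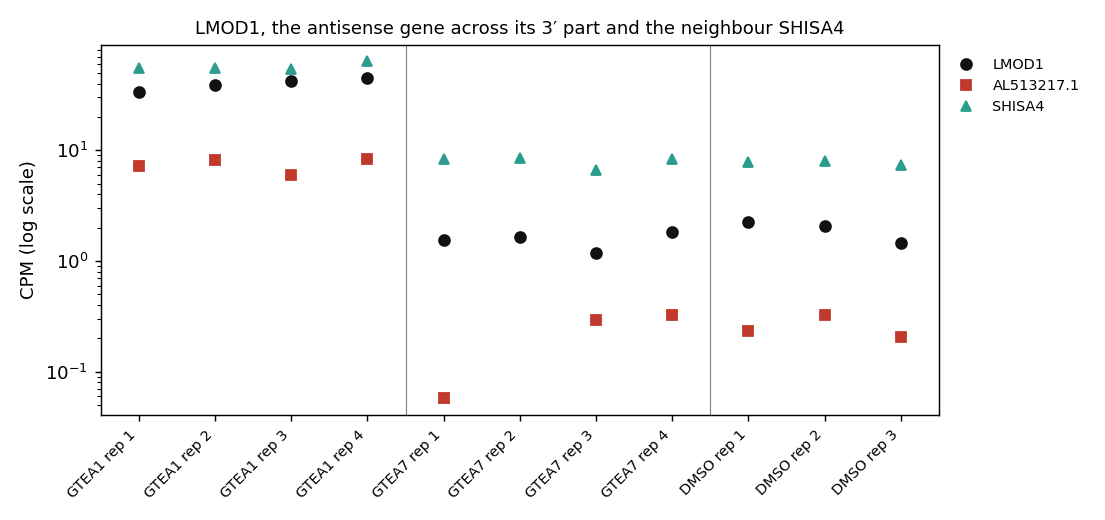
CPM on a log scale (vertical axis) of LMOD1, the antisense gene AL513217.1 and the neighbour SHISA4 in each library (horizontal axis, GTEA1, GTEA7, then DMSO). All 3 genes are higher in the GTEA1 libraries, where SHISA4 reaches 54.0 to 63.3 CPM; GTEA7 replicate 2 has 0 counts of AL513217.1 and so no point.

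The tropomyosin genes differed among themselves. TPM4 (ENSG00000167460; chromosome 19, 16067021 to 16103005, plus strand) makes tropomyosins from more than 1 start, among them a short cytoskeletal tropomyosin of stress fibres. TPM4 stood at 637.8, 640.7, 646.3 and 655.5 CPM with GTEA1, 361.0, 364.7, 372.1 and 378.2 CPM with GTEA7, and 338.9, 343.4 and 353.8 CPM with DMSO. All GTEA1 libraries were above all others, and the GTEA7 libraries were narrowly above the DMSO libraries. The log2 fold change of TPM4 was 0.90 ± 0.03 for GTEA1 against DMSO, a 1.87-fold higher level, 0.10 ± 0.03 for GTEA7 against DMSO, and -0.81 ± 0.03 for GTEA7 against GTEA1. Leaving out each library in turn, the value of TPM4 for GTEA7 against DMSO ranged over 0.08 to 0.11. The TPM4 pseudogenes TPM4P3 and TPM4P2, with 341 and 195 counts in all, had log2 fold changes of 0.81 and 0.92 for GTEA1 against DMSO, and how the counting split reads between such copies is not given in the sources used here.

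TPM1 (ENSG00000140416; chromosome 15, 63042632 to 63071915, plus strand) makes muscle as well as cytoskeletal tropomyosins. TPM1 stood at 28.92, 28.95, 30.4 and 31.6 CPM with GTEA1, 18.2, 19.0, 20.2 and 22.0 CPM with GTEA7, and 19.9, 21.6 and 23.3 CPM with DMSO. The GTEA1 libraries were above all others, and the GTEA7 and DMSO libraries overlapped. TPM1 had a log2 fold change of 0.47 ± 0.07 for GTEA1 against DMSO, -0.13 ± 0.07 for GTEA7 against DMSO and -0.60 ± 0.06 for GTEA7 against GTEA1. TPM2 (ENSG00000198467; chromosome 9, 35681992 to 35690121, minus strand), which makes beta-tropomyosin, went the other way by a small amount. TPM2 stood at 134.2, 140.0, 146.2 and 154.0 CPM with GTEA1, 148.4, 152.5, 155.3 and 160.3 CPM with GTEA7, and 148.4, 158.5 and 160.2 CPM with DMSO. The ranges of all 3 groups overlapped. TPM2 had a log2 fold change of -0.12 ± 0.04 for GTEA1 against DMSO, -0.02 ± 0.04 for GTEA7 against DMSO and 0.10 ± 0.04 for GTEA7 against GTEA1. With each library left out in turn, the first of these values ranged over -0.15 to -0.08 and the last over 0.07 to 0.14.

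Ratios within a library do not depend on how libraries are scaled. TPM3, the fourth tropomyosin gene and no member of the set, had a log2 fold change of -0.41 ± 0.03 for GTEA1 against DMSO (edgeR adjusted p = 1.9e-15) and -0.02 ± 0.03 for GTEA7 against DMSO (edgeR adjusted p = 0.72). Of all counts of the 4 tropomyosin genes, TPM4 took 56.6 ± 0.782% with GTEA1, 38.4 ± 0.445% with GTEA7 and 36.5 ± 0.702% with DMSO (SD, n = 4, 4 and 3). TPM3 took 28.2 ± 0.503% with GTEA1, 43.6 ± 0.203% with GTEA7 and 44.8 ± 0.277% with DMSO. TPM4 thus held the largest share, not corrected for length, in every GTEA1 library and TPM3 in every GTEA7 and DMSO library. TPM2 took 12.6 ± 0.535% with GTEA1, 16.0 ± 0.315% with GTEA7 and 16.4 ± 0.727% with DMSO, and TPM1 between 1.87% and 2.71% in every library. The summed level of the 4 genes was 1139 ± 20.8 CPM with GTEA1, 961.8 ± 18.3 CPM with GTEA7 and 947.5 ± 3.60 CPM with DMSO. The ratio of TPM4 to TPM2 counts was 4.50 ± 0.248 with GTEA1, 2.40 ± 0.0737 with GTEA7 and 2.22 ± 0.143 with DMSO. Counts per gene do not separate the muscle and cytoskeletal transcripts that each tropomyosin gene can make.

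**Figure D3:**
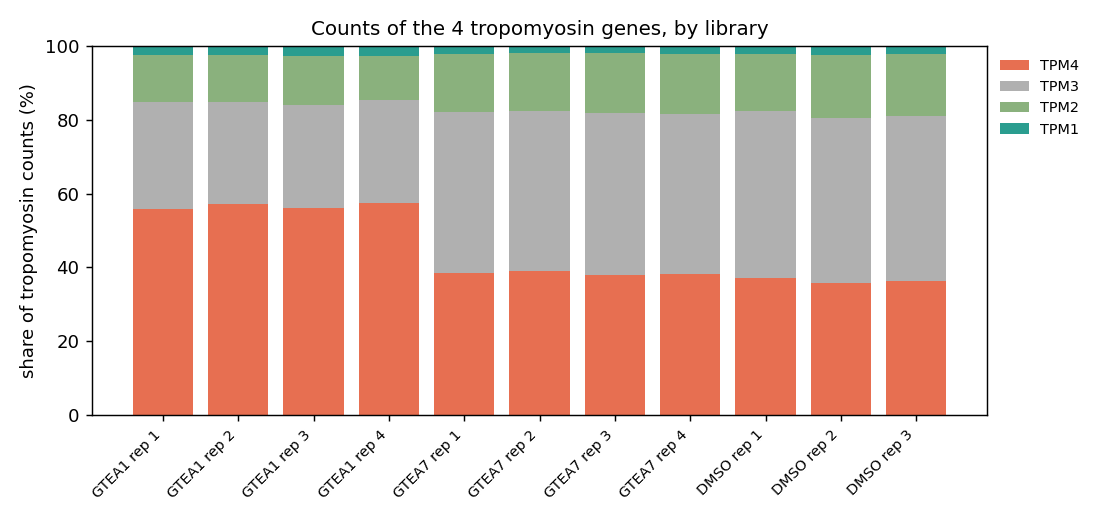
Share of the counts of the 4 tropomyosin genes (vertical axis, percent) in each library (horizontal axis, GTEA1, GTEA7, then DMSO), stacked with TPM4 at the bottom, then TPM3, TPM2 and TPM1. TPM4 takes 55.8% to 57.4% in the GTEA1 libraries, 37.9% to 39.0% in the GTEA7 libraries and 35.8% to 37.2% in the DMSO libraries.

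TAGLN (ENSG00000149591; chromosome 11, 117199321 to 117204782, plus strand) encodes transgelin, an actin-binding protein of smooth muscle and a classical SRF target. TAGLN stood at 8.28, 8.41, 9.04 and 9.23 CPM with GTEA1, 3.66, 3.69, 4.04 and 5.39 CPM with GTEA7, and 4.97, 5.23 and 5.45 CPM with DMSO. All GTEA1 libraries were above the rest, and 1 GTEA7 library lay among the DMSO libraries while the other 3 lay under them. For TAGLN the log2 fold change was 0.75 ± 0.12 for GTEA1 against DMSO, -0.32 ± 0.13 for GTEA7 against DMSO and -1.07 ± 0.11 for GTEA7 against GTEA1. Without GTEA7 replicate 4 the value for GTEA7 against DMSO was -0.45. MYL9 (ENSG00000101335; chromosome 20, 36541484 to 36551447, plus strand) encodes a regulatory light chain of myosin II, whose phosphorylation starts contraction. MYL9 stood at 16.1, 18.8, 20.1 and 20.9 CPM with GTEA1, 19.2, 21.2, 22.7 and 24.6 CPM with GTEA7, and 23.0, 24.0 and 24.7 CPM with DMSO. The GTEA1 libraries were all under the DMSO libraries, and the GTEA7 libraries overlapped both groups. For MYL9 the log2 fold change was -0.33 ± 0.08 for GTEA1 against DMSO, -0.11 ± 0.07 for GTEA7 against DMSO and 0.22 ± 0.07 for GTEA7 against GTEA1, the last with a range of 0.15 to 0.28 when each library was left out. MYL12A, which encodes the widespread nonmuscle counterpart of this light chain, moved oppositely with GTEA1, at 183.6 ± 11.8 CPM with GTEA1, 104.3 ± 5.45 CPM with GTEA7 and 111.3 ± 2.34 CPM with DMSO. The ratio of MYL9 to MYL12A counts was 0.103 ± 0.0122 with GTEA1, 0.210 ± 0.0207 with GTEA7 and 0.215 ± 0.0117 with DMSO.

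The nonmuscle alpha-actinins were both higher with GTEA1. ACTN1 (ENSG00000072110; chromosome 14, 68874143 to 68979440, minus strand) crosslinks stress fibres and links them to adhesions. ACTN1 stood at 216.3, 219.9, 224.6 and 233.0 CPM with GTEA1, 159.5, 159.7, 164.0 and 171.6 CPM with GTEA7, and 176.7, 176.9 and 179.4 CPM with DMSO. The 3 groups did not overlap, with GTEA1 above DMSO and GTEA7 under DMSO. ACTN1 had a log2 fold change of 0.33 ± 0.04 for GTEA1 against DMSO, -0.12 ± 0.04 for GTEA7 against DMSO and -0.45 ± 0.03 for GTEA7 against GTEA1. Its value for GTEA7 against DMSO ranged over -0.14 to -0.10 with each library left out. ACTN4 (ENSG00000130402; chromosome 19, 38647649 to 38731583, plus strand) is the alpha-actinin most often linked with cell motility. ACTN4 stood at 431.0, 435.3, 457.6 and 471.5 CPM with GTEA1, 268.1, 277.8, 281.1 and 289.7 CPM with GTEA7, and 283.9, 300.9 and 309.2 CPM with DMSO. The GTEA1 libraries were above all others, and the GTEA7 and DMSO libraries overlapped. ACTN4 had a log2 fold change of 0.59 ± 0.04 for GTEA1 against DMSO, -0.09 ± 0.04 for GTEA7 against DMSO and -0.68 ± 0.03 for GTEA7 against GTEA1, and the value for GTEA7 against DMSO ranged over -0.13 to -0.07 with each library left out. The ratio of ACTN4 to ACTN1 counts was 2.01 ± 0.0924 with GTEA1, 1.71 ± 0.0587 with GTEA7 and 1.68 ± 0.0858 with DMSO. The muscle alpha-actinin ACTN2, singled out after its values were seen, had 7 counts over the GTEA1 libraries, 78 over the GTEA7 libraries and 74 over the DMSO libraries.

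FSCN1 (ENSG00000075618; chromosome 7, 5592823 to 5606655, plus strand) encodes fascin, which bundles the filaments of filopodia and is often raised in invasive carcinoma. FSCN1 stood at 159.7, 162.3, 165.3 and 166.0 CPM with GTEA1, 137.0, 139.6, 140.0 and 142.3 CPM with GTEA7, and 153.3, 170.0 and 173.9 CPM with DMSO. It was the gene of the set in which GTEA7 stood further from DMSO than GTEA1 did: the GTEA7 libraries were under all others, and the GTEA1 libraries lay within the DMSO range. The log2 fold change of FSCN1 was -0.02 ± 0.04 for GTEA1 against DMSO, -0.25 ± 0.04 for GTEA7 against DMSO and -0.22 ± 0.04 for GTEA7 against GTEA1. The first value was 0.02 without DMSO replicate 2. With library size as the only scaling it was -0.18, where the median of all tested genes was -0.17. The ratio of FSCN1 to ACTN4 counts was 0.364 ± 0.00949 with GTEA1, 0.501 ± 0.0136 with GTEA7 and 0.556 ± 0.0138 with DMSO. VCL (ENSG00000035403; chromosome 10, 73995193 to 74121363, plus strand) encodes vinculin, which couples talin at integrin adhesions to actin. VCL stood at 293.0, 305.3, 308.4 and 317.8 CPM with GTEA1, 243.4, 245.0, 246.7 and 247.9 CPM with GTEA7, and 246.8, 253.9 and 253.9 CPM with DMSO. The GTEA1 libraries were above all others, and the GTEA7 and DMSO libraries overlapped. For VCL the log2 fold change was 0.28 ± 0.03 for GTEA1 against DMSO, -0.03 ± 0.03 for GTEA7 against DMSO and -0.32 ± 0.03 for GTEA7 against GTEA1. The ratio of VCL to its partner TLN1, which encodes talin 1, was 1.59 ± 0.0531 with GTEA1, 1.40 ± 0.0183 with GTEA7 and 1.29 ± 0.0201 with DMSO.

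**Figure D4:**
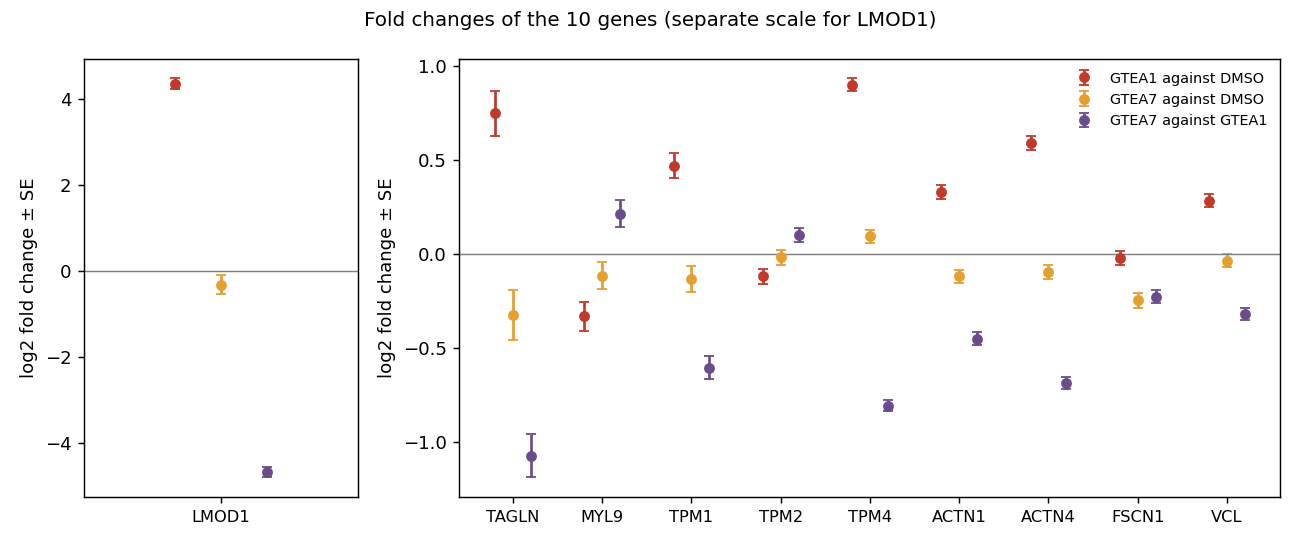
Log2 fold change ± SE (vertical axis) of the 10 genes for GTEA1 against DMSO, GTEA7 against DMSO and GTEA7 against GTEA1, with LMOD1 on a scale of its own at the left. LMOD1 stands at 4.36 for GTEA1 against DMSO, the other 9 genes lie between -0.33 and 0.90 in that comparison, and FSCN1 has its lowest value for GTEA7 against DMSO.

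Per kilobase of the longest annotated transcript (GENCODE v29), which allows levels to be set beside each other between genes, TPM4 led in every group with 207.7 ± 2.51 CPM per kb with GTEA1, 118.8 ± 2.46 with GTEA7 and 111.2 ± 2.47 with DMSO. TPM2 followed at 90.9 ± 5.39 CPM per kb with GTEA1, 97.5 ± 3.18 with GTEA7 and 98.5 ± 4.03 with DMSO. ACTN4 was not separated from TPM2 beyond their spread with GTEA1, at 90.5 ± 3.84 CPM per kb, and stood under it at 56.3 ± 1.80 with GTEA7 and 60.0 ± 2.60 with DMSO. FSCN1, ACTN1 and VCL came next, between 30.7 and 59.7 CPM per kb. With DMSO, FSCN1 at 59.7 ± 3.95 CPM per kb was not separated from ACTN4 beyond their spread. TPM1 and MYL9 lay between 5.01 and 8.47, and TAGLN between 1.27 and 2.65. LMOD1 had 10.0 ± 1.21 CPM per kb with GTEA1, above MYL9, TPM1 and TAGLN, but 0.391 ± 0.0696 with GTEA7 and 0.481 ± 0.103 with DMSO, the lowest of the 10 in both. This order depends on the length used. With the median transcript length in place of the longest, ACTN4 had the highest level in every group, TPM2 with GTEA1 stood at 124.9 CPM per kb, under ACTN1 at 269.9 and FSCN1 at 229, and LMOD1 with GTEA1 stood at 11.3, under TPM1 at 29.85 but above MYL9 at 9.86 and TAGLN at 7.68. Of the 30 levels, 28 moved by more than the spread between libraries.

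RefSeq promoter windows were found for 7 of the 10 genes, LMOD1, TPM1, TPM2, TPM4, ACTN1, ACTN4 and VCL, in 14 windows. The CArG box lay in 2 of these windows, 1 of 3 for TPM4 and 1 of 4 for ACTN1, and in 1.29% of all 35116 windows of the same length. For TPM4 it was the most upstream window, and the windows starting at 16076245 and 16076766 held no CArG box. Both windows are shown because they carry the element that binds SRF, with the CArG box in capitals at -173 to -164 from the start in TPM4 (chr19:16067288-16067587, plus strand) and at -171 to -162 in ACTN1 (chr14:68977517-68977816, minus strand), both in GRCh38.p14.
TPM4: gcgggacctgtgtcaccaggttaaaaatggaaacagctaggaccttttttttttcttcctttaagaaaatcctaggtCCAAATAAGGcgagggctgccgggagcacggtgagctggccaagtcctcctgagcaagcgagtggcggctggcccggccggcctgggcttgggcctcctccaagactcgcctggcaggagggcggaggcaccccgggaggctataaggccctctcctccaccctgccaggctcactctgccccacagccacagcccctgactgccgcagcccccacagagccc
ACTN1: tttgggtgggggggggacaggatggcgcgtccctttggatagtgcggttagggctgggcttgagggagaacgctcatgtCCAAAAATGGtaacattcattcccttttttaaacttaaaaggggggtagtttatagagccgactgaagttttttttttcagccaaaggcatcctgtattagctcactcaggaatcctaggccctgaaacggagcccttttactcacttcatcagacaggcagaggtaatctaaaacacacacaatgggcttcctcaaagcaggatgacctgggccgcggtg

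Other motifs were searched on both strands of the 14 windows. The TEAD motif (GGAATG) lay in windows of LMOD1, ACTN1 and VCL and in 14.0% of all windows. An AP-1-like pattern with any middle base (TGANTCA) lay in a window of ACTN4, as TGAATCA at -248 to -242, and in 7.71% of all windows. The ATF4 motif (TGATGNAA) lay in a window of ACTN1 and in 3.62%. The letters of the TATA box (TATAAA) lay on the opposite strand in a window of ACTN1, at -122 to -117, and in 11.5%. No match overlapped another. A match is a description of letters in these windows and shows no binding.

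Genes most like LMOD1 were sought by the Pearson correlation of log2 CPM over the 11 libraries among 15329 candidate genes. GRB7, YPEL5, AGPAT4, MKNK2 and ADGRG1 came first, with r of 0.998 each. GRB7, which encodes an adaptor of receptor tyrosine kinases, stood at 68.6 ± 1.61 CPM with GTEA1, 19.4 ± 0.584 CPM with GTEA7 and 20.6 ± 1.46 CPM with DMSO, and MKNK2, which encodes a kinase of the translation factor eIF4E, at 317.5 ± 8.05 CPM with GTEA1, 93.5 ± 4.67 CPM with GTEA7 and 101.9 ± 2.53 CPM with DMSO. As many as 2106 genes had r over 0.95, and the points of such genes fall into a GTEA1 cluster and a cluster of all other libraries. With Spearman's rho the first 5 were BLTP1, PIWIL4, AKAP9, YPEL5 and DOCK3, of which 1 was shared. Among the set itself r with LMOD1 was 0.98 for TPM4, ACTN4 and VCL, 0.97 for ACTN1, 0.95 for TPM1, 0.94 for TAGLN, 0.51 for FSCN1, -0.70 for TPM2 and -0.71 for MYL9.

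The other genes of the pathway were described from 7 lists that leave out the 10 genes and hold 114 tested genes of 127. These lists were drawn up with earlier results of these data known. The genes named from a list are mostly its 2 highest and 2 lowest called, and so are not typical of it. With GTEA1, 52 of the 114 rose (45.6%) and 40 fell (35.1%), and the median was 0.06 on the log2 scale, where 35.6% of all tested genes rose and 36.2% fell. With GTEA7, 19 rose (16.7%) and 28 fell (24.6%) with a median of -0.05, where 12.0% of all tested genes rose and 10.4% fell. For GTEA7 against GTEA1, 39 were higher and 52 lower (34.2% and 45.6%), with a median of -0.06, where 36.2% of all tested genes were higher and 36.4% lower. The lists therefore held genes moving both ways under both extracts.

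Among actin isoforms, both cytoskeletal actins rose with GTEA1. ACTG1, gamma actin, averaged 5778 ± 375.3 CPM with GTEA1, 2673 ± 50.6 CPM with GTEA7 and 2919 ± 76.9 CPM with DMSO, a log2 fold change of 0.99 ± 0.04 for GTEA1 against DMSO (edgeR adjusted p = 2.0e-27). ACTB, beta actin, averaged 1897 ± 150.2 CPM with GTEA1, 1055 ± 21.7 CPM with GTEA7 and 1192 ± 45.8 CPM with DMSO, a log2 fold change of 0.67 ± 0.04 (edgeR adjusted p = 6.6e-15). With GTEA7 both fell slightly, ACTB by 0.18 and ACTG1 by 0.13 on the log2 scale (edgeR adjusted p = 0.0032 and 0.014), and limma-voom did not call either (adjusted p = 0.067 and 0.060). The call of ACTG1 was also lost without DMSO replicate 3 (-0.11) or GTEA7 replicate 3 (-0.12), which left 1 isoform called lower. ACTA2, the smooth muscle alpha actin, stood at 1.60 ± 0.127 CPM with GTEA1, 1.85 ± 0.243 CPM with GTEA7 and 1.77 ± 0.506 CPM with DMSO and did not pass in either comparison. The other 3 isoforms of the 6 had too few counts to be tested.

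Of the 15 tested genes on the smooth muscle contractile list, 3 rose and 9 fell with GTEA1, and the median was -0.25 on the log2 scale. The list also holds relatives found beyond smooth muscle, and TMOD2, TMOD3, TPM3, MYL6, MYL6B and CNN3 were among those that fell. MYH11, CNN1 and ACTG2 were not tested, so these counts describe the list and not smooth muscle genes alone. TMOD1, a pointed-end cap of the same family as LMOD1, rose by 0.88 ± 0.11 (edgeR adjusted p = 1.0e-09) and SMTN, smoothelin, by 0.53 ± 0.05 (edgeR adjusted p = 3.5e-14). TMOD2, another pointed-end cap, fell by 0.81 ± 0.06 (edgeR adjusted p = 1.4e-15) and SYNPO2, which binds actin at the Z-disc, by 0.99 ± 0.15 (edgeR adjusted p = 1.4e-07). With GTEA7, 2 rose and 4 fell: CALD1, caldesmon, was higher by 0.22 ± 0.03 and CNN3, a nonmuscle calponin, by 0.11 ± 0.04 (edgeR adjusted p = 2.1e-06 and 0.020), and SMTN was lower at -0.38 ± 0.05 and SYNPO2 at -0.53 ± 0.14 (edgeR adjusted p = 4.2e-08 and 0.0033). Without DMSO replicate 1, DMSO replicate 3 or GTEA7 replicate 3 the call of CNN3 was lost (0.09 to 0.11), leaving 1 gene higher. LMOD1 and SMTN thus both had their highest level with GTEA1, whereas MYH11, CNN1 and ACTG2 were near 0 in all 3 groups. The smooth muscle markers SYNM and DES had their lowest mean with GTEA1, at 8.49 and 2.42 CPM.

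Of the 20 genes of nonmuscle myosin II and its regulators, 8 rose and 8 fell with GTEA1, and the median was -0.04 on the log2 scale. ARHGEF2, which encodes the microtubule-bound RhoA exchange factor GEF-H1, averaged 295.2 ± 13.7 CPM with GTEA1, 45.7 ± 1.96 CPM with GTEA7 and 50.03 ± 1.72 CPM with DMSO, a log2 fold change of 2.56 ± 0.04 (edgeR adjusted p = 9.6e-44). MYL12A rose by 0.72 ± 0.04 (edgeR adjusted p = 7.5e-20), MYH9, the nonmuscle myosin IIA heavy chain, by 0.24 ± 0.04 (edgeR adjusted p = 7.0e-08) and the kinase ROCK1 by 0.30 ± 0.04 (edgeR adjusted p = 7.8e-10). CIT, citron kinase of the cleavage furrow, fell by 1.14 ± 0.06 (edgeR adjusted p = 1.3e-21), MYLK, the myosin light chain kinase, by 0.76 ± 0.09 (edgeR adjusted p = 5.5e-10) and RHOA by 0.15 ± 0.03 (edgeR adjusted p = 6.1e-05). Paralogs, singled out after their values were seen, went both ways with GTEA1. ROCK2 fell by 0.67 ± 0.04 and the heavy chain gene MYH10 by 0.65 ± 0.04 (edgeR adjusted p = 7.6e-22 and 1.4e-21). Another heavy chain gene, MYH14, rose by 0.69 ± 0.04 (edgeR adjusted p = 1.2e-20). RHOB fell by 0.57 ± 0.05 and RHOC rose by 0.63 ± 0.05 (edgeR adjusted p = 1.7e-14 and 1.5e-15). With GTEA7, 1 rose and 5 fell: PPP1CB, a catalytic subunit of myosin phosphatase, was at 0.13 ± 0.03 (edgeR adjusted p = 0.0032), CIT at -0.29 ± 0.05 (edgeR adjusted p = 4.1e-05) and MYH9 at -0.20 ± 0.04 (edgeR adjusted p = 2.6e-05), while RHOA at -0.05 ± 0.03 and ROCK1 at 0.01 ± 0.04 did not pass (edgeR adjusted p = 0.32 and 0.90). The 5 that fell became 2 without DMSO replicate 2, DMSO replicate 3 or GTEA7 replicate 3, and 3 without GTEA1 replicate 2 or GTEA7 replicate 2. With library size as the only scaling ROCK1 had a negative sign with GTEA7 (-0.04).

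Of the 17 tested crosslinkers and bundlers, 7 rose and 7 fell with GTEA1, and the median was -0.04 on the log2 scale. FLNC, a filamin that joins filaments into networks, rose by 1.24 ± 0.05 (edgeR adjusted p = 1.9e-19). MARCKSL1, a membrane-bound actin regulator, fell by 1.68 ± 0.05 and ESPN, the microvillar bundler espin, by 0.65 ± 0.05 (edgeR adjusted p = 3.2e-35 and 1.8e-16). With GTEA7, 4 rose and 7 fell: LIMA1 stood at 0.25 ± 0.04 and PLS1, plastin 1, at 0.16 ± 0.05, while ESPN stood at -0.36 ± 0.05 and FLNA at -0.32 ± 0.04 (edgeR adjusted p = 1.1e-06, 0.010, 6.0e-08 and 1.9e-09 in this order). The 4 that rose became 2 without DMSO replicate 1 or 3, and the call of PLS1 was lost there and without GTEA7 replicate 2 (0.13).

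Of the 24 tested focal adhesion plaque and stress fibre genes, 11 rose and 7 fell with GTEA1, and the median was 0.11 on the log2 scale. FHL2, a LIM-domain cofactor found at focal adhesions and in the nucleus, averaged 146.6 ± 3.81 CPM with GTEA1, 40.9 ± 0.826 CPM with GTEA7 and 35.6 ± 2.24 CPM with DMSO, a log2 fold change of 2.04 ± 0.05 (edgeR adjusted p = 8.2e-39). PDLIM7, a PDZ and LIM protein of stress fibres, rose by 1.21 ± 0.05 (edgeR adjusted p = 6.9e-29), while its relative PDLIM5 fell by 1.41 ± 0.04 (edgeR adjusted p = 3.5e-36) and the tensin TNS3 by 1.14 ± 0.06 (edgeR adjusted p = 2.2e-22). With GTEA7, 4 rose and 5 fell: PDLIM5 stood at 0.24 ± 0.03, the opposite sign to GTEA1, and LIMS1, the adhesion adaptor PINCH1, at 0.22 ± 0.05 (edgeR adjusted p = 4.4e-07 and 0.00022), and the tensins TNS1 and TNS3 at -0.27 ± 0.07 and -0.25 ± 0.05 (edgeR adjusted p = 0.0058 and 0.00043). Without DMSO replicate 3 the 4 that rose became 2, and without DMSO replicate 2 the call of TNS1 was lost (-0.22). PDLIM5 differed between the extracts directly, at 1.66 ± 0.03 for GTEA7 against GTEA1 (edgeR adjusted p = 2.6e-40).

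Of the 32 actin assembly and disassembly factors, 17 rose and 11 fell with GTEA1, where the median was 0.11 on the log2 scale, and 7 rose and 3 fell with GTEA7, with a median of 0.01. With library size as the only scaling, 10 rose with GTEA1, and without any 1 of the 3 DMSO libraries or GTEA7 replicate 3 the number that rose with GTEA7 was 4. SSH1, the phosphatase that activates cofilin, rose with both extracts, averaging 414.7 ± 18.1 CPM with GTEA1, 258.8 ± 7.52 CPM with GTEA7 and 196.3 ± 7.72 CPM with DMSO, a log2 fold change of 1.08 ± 0.04 for GTEA1 against DMSO and 0.40 ± 0.04 for GTEA7 against DMSO (edgeR adjusted p = 2.0e-30 and 3.6e-12). LIMK2, a kinase that inactivates cofilin, fell by 0.99 ± 0.07 and the formin DIAPH3 by 1.02 ± 0.08 with GTEA1 (edgeR adjusted p = 2.6e-18 and 9.5e-17). Their relatives, singled out after their values were seen, went the other way: LIMK1 rose by 0.24 ± 0.04 and SSH3 fell by 0.17 ± 0.06 with GTEA1 (edgeR adjusted p = 3.7e-06 and 0.011). The cofilin genes CFL1 and CFL2, also singled out so, fell by 0.71 ± 0.04 and 0.58 ± 0.06 with GTEA1 (edgeR adjusted p = 6.8e-24 and 2.8e-13). TMSB10, a thymosin that sequesters actin monomers, rose by 0.81 ± 0.04 with GTEA1 and fell by 0.22 ± 0.04 with GTEA7 (edgeR adjusted p = 3.5e-25 and 1.2e-05). With GTEA7 the severing factor DSTN rose by 0.20 ± 0.03 and gelsolin, GSN, fell by 0.25 ± 0.04 (edgeR adjusted p = 8.5e-06 and 2.5e-06).

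**Figure D5:**
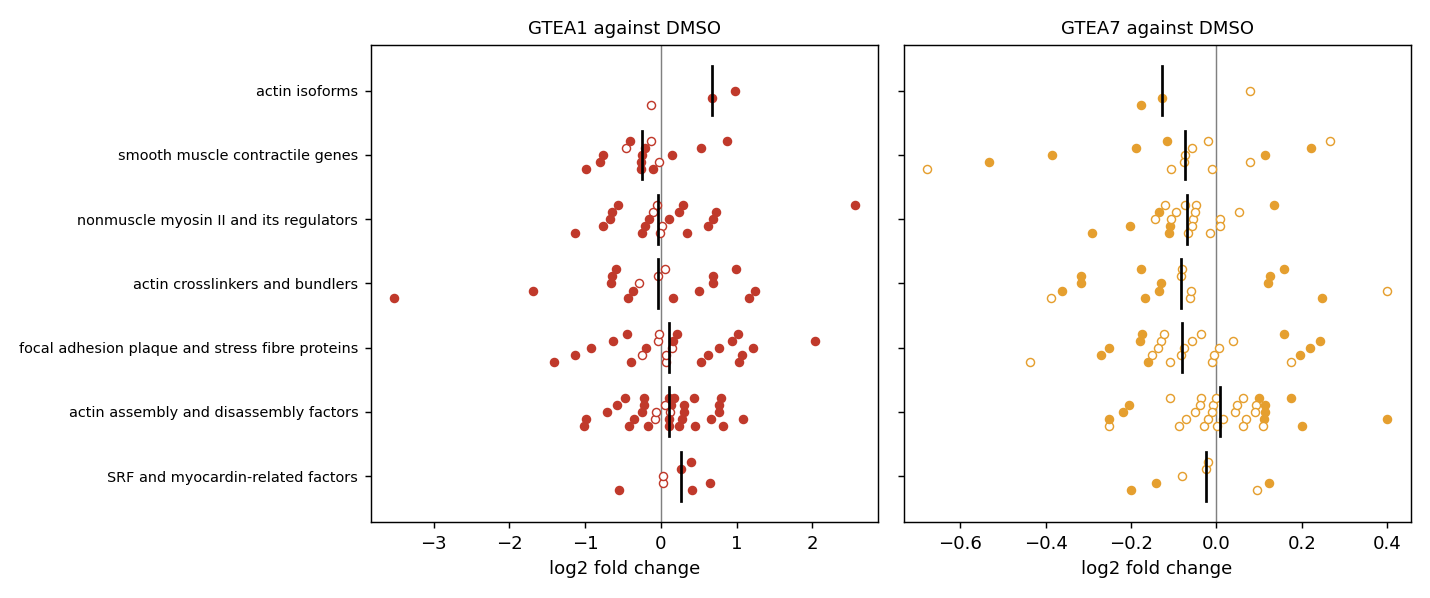
Log2 fold change (horizontal axis, a separate scale in each panel) of the tested genes of the 7 lists (rows) for GTEA1 against DMSO at the left and GTEA7 against DMSO at the right; filled points passed an adjusted p under 0.05, open points did not, and black bars are list medians. Every list spreads to both sides of 0 in both panels, with medians between -0.25 and 0.67 at the left and between -0.13 and 0.01 at the right.

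Of the 7 tested SRF and myocardin-related factors, 4 rose and 1 fell with GTEA1. SRF itself averaged 49.0 ± 2.50 CPM with GTEA1, 36.7 ± 1.96 CPM with GTEA7 and 37.3 ± 2.50 CPM with DMSO, a log2 fold change of 0.40 ± 0.06 for GTEA1 against DMSO (edgeR adjusted p = 1.2e-08) and -0.02 ± 0.06 for GTEA7 against DMSO (edgeR adjusted p = 0.85). ELK3 and ELK4, ternary complex factors that share SRF with the myocardin family, rose by 0.66 ± 0.04 and 0.41 ± 0.04 with GTEA1 (edgeR adjusted p = 9.8e-20 and 9.3e-13). SCAI, which represses MRTF, was also among those that rose with GTEA1, by 0.26 ± 0.05 (edgeR adjusted p = 6.3e-06). The coactivator MRTFB fell by 0.55 ± 0.04 with GTEA1 (edgeR adjusted p = 2.3e-17), and MRTFA stood at 0.03 ± 0.06 (edgeR adjusted p = 0.64), with a negative sign of -0.13 when library size was the only scaling. With GTEA7, 1 rose and 2 fell: ELK3 rose by 0.12 ± 0.04 (edgeR adjusted p = 0.025), MRTFA fell by 0.20 ± 0.06 (edgeR adjusted p = 0.013) and SCAI, a repressor of MRTF, by 0.14 ± 0.05 (edgeR adjusted p = 0.036), while MRTFB at -0.08 ± 0.04 did not pass (edgeR adjusted p = 0.13). The rise of ELK3 with GTEA7 was lost without DMSO replicate 2 or 3 or GTEA7 replicate 2 or 4, the fall of MRTFA without DMSO replicate 3 or GTEA7 replicate 3, and that of SCAI without DMSO replicate 1 or 3 or GTEA7 replicate 1 or 2. Without GTEA1 replicate 1 or 4, 2 factors rose with GTEA7, and without DMSO replicate 3, 0 fell.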

How the data were processed

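The measurements are RNA sequencing libraries of HCT116 cells. The authors deposited raw read counts per gene, and these counts were not normalized. Per the labels' protocols, TRIzol-extracted RNA was selected with poly-T beads, primed with random hexamers in a NEBNext Ultra kit and sequenced on a NovaSeq. HTSeq 0.5.4, DESeq 1.10.1, STAR, SAMtools 0.1.18, GATK and Picard appear in the submitters' processing notes with no role. Build, annotation and whether counting used strand: not given in the sources used here. Symbols and coordinates came from GENCODE v29 (GRCh38) by Ensembl ID.

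Groups came from the labels. Genes were kept with filterByExpr, scaled with TMM and fitted in a single model of 11 libraries with edgeR 4.0.16 (quasi-likelihood, robust) in R 4.3.3, and SE is the log2 fold change divided by the root of F. The 10 members and the lists were chosen with earlier results of these data known. Genes named beside the members are, per list and extract, the 2 highest and 2 lowest called with at least 1 CPM, SRF, MRTFA, MRTFB, ACTB, ACTG1, MYH9, RHOA and ROCK1 whatever their values, and the 5 genes most like LMOD1. TPM3 and TLN1, used in ratios, LMOD2, LMOD3, ACTA2, marker genes, neighbours, overlapping genes and pseudogenes fall outside this rule, and other exceptions are named as such. A gene that the rule names is not reported here. Log2 CPM used a prior count of 2. The method was tested on simulated data in which few genes were changed, in random directions, unlike the comparisons that involve GTEA1. Alternatives were leaving out each library, fits of the compared groups, a replicate block, limma-voom (limma 3.58.1), the DESeq2 1.42.0 Wald test and size factors, library size only, no filter, and a stricter filter (1 CPM in 3 libraries).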

Additional observations from a re-analysis of the deposited data

Results flagged for a closer look

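Within groups of 4 libraries, 102 sets of values were examined for a library standing apart by Dixon's test, which chance gives in about 1 in 20 groups, and 3 were found. MRTFB with GTEA7 had 108 CPM in replicate 4, and 115 to 116 CPM in the others. ARHGEF2 with GTEA7 had 42.7 CPM in replicate 2, and 46.4 to 46.8 CPM in the others. LIMK2 with GTEA1 had 19.3 CPM in replicate 4, and 15.6 to 15.9 CPM in the others. None of the 10 members was among them.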

How the results depend on the processing

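Of 570 values of the 10 members over all alternatives, 544 kept their direction and side of the threshold. Most of those that did not were for GTEA7 against DMSO, in TAGLN, TPM2, TPM4, ACTN1 and ACTN4. The members were chosen on these data, so their counts past the threshold are a description. With library size as the only scaling, GTEA7 against DMSO had 0 members called higher and 4 lower, and 1255 and 2954 of all genes; the lists then had 1 smooth muscle gene higher, 0 myosin genes higher and 9 lower, 1 crosslinker higher, 3 assembly factors higher and 5 lower, and 0 SRF factors higher. That scaling gave 10 assembly factors higher and 2 SRF factors lower for GTEA1 against DMSO, and 16 assembly factors higher for GTEA7 against GTEA1. It reversed MRTFA for GTEA1 to -0.13 and ROCK1 for GTEA7 to -0.0421. For GTEA7 against DMSO, DESeq2 size factors and the DESeq2 Wald test each gave 3 myosin genes and 1 SRF factor lower. No filter gave 1 member, 2 myosin genes and 0 SRF factors lower. The main fit had 2 members and 10.4% of all tested genes lower. The fit of the compared groups alone gave 2 SRF factors higher, and limma-voom 0 actin isoforms lower. Cause was not tested in any of these.

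No pairing by replicate number was seen: of 10 same-numbered pairs 0 had a correlation of deviations over 0.1 (-0.055 to 0.026). Of the 11 libraries, 1 correlated best with its own number. Deviations were taken over all tested genes, where count noise can hide a shared culture, so whether equal numbers mark one is not settled. With the number as a block, 0 SRF factors were called higher for GTEA7 against DMSO, and ROCK1 was at -6e-04.

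With all libraries, 1 of the 10 members was called higher and 2 lower for GTEA7 against DMSO (12.0% and 10.4% of all tested genes). For GTEA1 against DMSO these were 7 and 2 (35.6% and 36.2%), and for GTEA7 against GTEA1 2 and 8 (36.2% and 36.4%). Leaving out 1 library at a time gave 0 to 1 members higher and 1 to 3 lower for GTEA7 against DMSO. All genes then gave 1600 to 2461 and 1373 to 2009. For GTEA1 against DMSO it gave 1 to 2 members lower, beside 6294 to 6500 of all genes. For GTEA7 against GTEA1 it gave 1 to 2 members higher, beside 6248 to 6580 of all genes. For GTEA7 against DMSO the lists had 4 to 8 assembly factors, 2 to 4 crosslinkers, 2 to 5 adhesion genes, 1 to 2 smooth muscle genes and 0 to 2 SRF factors higher, and 1 to 2 actin isoforms, 2 to 6 myosin genes and 0 to 2 SRF factors lower. Signs changed for FSCN1 with GTEA1 (-0.0768 to 0.0168), and with GTEA7 for TPM2 (-0.049 to 0.0075), SRF (-0.0743 to 0.0107) and ROCK1 (-0.0206 to 0.0313). Depth limited LMOD1 with GTEA7 and DMSO and AL513217.1 in the same groups.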
